A study of Mus musculus with 6 samples.

Results

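The Hist1 histone gene cluster of mouse chromosome 13 and the interval of vomeronasal receptor genes inside it were examined in aligned reads from embryonic stem (ES) cells. The members were the 1 kb windows of a proximal block, chr13:21800001-22150000, a distal block, chr13:23550001-24050000, and the interval between them, chr13:22200001-23500000, all in mouse build mm9. The rule that chose them used position alone, but it was set with earlier results of these data known. The blocks held 350 and 500 windows and the interval 1300, which made 2150 of the 2641898 windows on chromosomes 1 to 19, X and Y. The study sequenced DNA from C57Bl/6 ES cells that were kept in LIF (leukaemia inhibitory factor, which holds ES cells undifferentiated) and had no feeder layer. All 6 libraries came from cells of this one strain and culture condition, and no group carried another allele or agent. The groups therefore differed in the assay and the antibody. H2A.B ChIP (1 library) used a home-made rabbit antibody on formaldehyde-crosslinked chromatin sheared to between 200 and 400 bp. IgG ChIP (1 library) was its control with a non-specific antibody. Methylated DNA immunoprecipitation (MeDIP) of 5-methylcytosine (5mC) gave 3 libraries, from denatured DNA of 100 to 400 bp pulled down with the monoclonal antibody 33D3, and IgG MeDIP (1 library) was the control for them. The labels name no separate cultures for the 3 5mC libraries, so any spread or p-value given for them covers only the differences between these libraries, which may be technical.

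H2A.B, also called H2A.Bbd, is a short variant of histone H2A that wraps less DNA in its nucleosome than canonical H2A does, and it is known from testis and from transcribed chromatin. Replication-dependent histone genes, such as those of Hist1, lie close together, lack introns and are transcribed mainly in S phase, when new DNA needs nucleosomes. Vmn1r genes encode type 1 vomeronasal receptors, G-protein-coupled receptors for pheromones in sensory neurons of the vomeronasal organ, and they are not known for a role in ES cells. 5mC lies mostly at CpG dinucleotides, and CpG-rich promoters are generally free of it. Expression was not measured in these libraries, so the silence of the receptor interval is background and was not tested.

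The order of the genes was read from the RefSeq gene table of build GRCm38.p6. The windows are in mm9, so no gene was placed in a window and the table served for names and neighbours only. The proximal run went from H2bc13 to H2bc11 and held 23 histone genes, of which 1 encoded the linker histone H1, 7 encoded H2A, 8 H2B, 2 H3 and 5 H4. The distal run, from H4c8 to H2ac1, held 31, of which 5 were for H1, 6 for H2A, 7 for H2B, 7 for H3 and 6 for H4. Between the runs the table listed no histone gene, 36 Vmn1r genes (Vmn1r188 first, Vmn1r223 last) and 39 Vmn1r pseudogenes. Genes for transfer RNA were also dense here, with 31 in the proximal run, 46 between the runs and 0 in the distal run. Of those 46, 45 came after the last Vmn1r entry, next to Zfp322a (a zinc finger gene), Abt1 (a cofactor of basal transcription) and the butyrophilin genes Btn1a1 and Btn2a2.

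Histone and receptor genes differed in the DNA before their starts, which is shown here because 5mC antibodies recover DNA by its methylated CpGs. RefSeq promoters of GRCm38.p6 were matched for 51 of the 54 histone genes and 33 of the 36 Vmn1r genes, and the 250 bases before each start were read. Capitals in the sequences below mark the TATA box motif TATAAA and the CCAAT box motif CCAAT, on either strand (TTTATA and ATTGG on the other strand). For each core histone class the first gene in symbol order that held both motifs is shown. H2ac1 (chr13:23934187-23934436, plus strand) and H2bc1 (chr13:23934157-23934406, minus strand) are neighbours whose promoters overlap and are read in opposite directions.
H2ac1: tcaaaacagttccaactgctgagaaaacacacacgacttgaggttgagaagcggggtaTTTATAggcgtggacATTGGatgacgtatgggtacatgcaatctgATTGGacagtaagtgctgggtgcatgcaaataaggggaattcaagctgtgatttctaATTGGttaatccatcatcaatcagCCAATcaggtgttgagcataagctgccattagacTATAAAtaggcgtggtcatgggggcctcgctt
H2bc1: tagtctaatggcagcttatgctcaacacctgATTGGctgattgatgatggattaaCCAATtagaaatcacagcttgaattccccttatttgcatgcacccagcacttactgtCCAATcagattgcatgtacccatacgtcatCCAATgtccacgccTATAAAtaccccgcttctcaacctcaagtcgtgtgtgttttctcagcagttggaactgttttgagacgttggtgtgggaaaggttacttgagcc
H3c10, an H3 gene of the proximal run (chr13:21717378-21717627, plus strand), and H4c4, an H4 gene of the distal run (chr13:23581318-23581567, plus strand), complete the core classes.
H3c10: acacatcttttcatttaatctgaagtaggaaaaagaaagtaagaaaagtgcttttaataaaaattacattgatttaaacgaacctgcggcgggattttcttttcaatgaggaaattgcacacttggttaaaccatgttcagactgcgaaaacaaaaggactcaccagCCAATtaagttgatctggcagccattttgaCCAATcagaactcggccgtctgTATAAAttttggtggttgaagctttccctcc
H4c4: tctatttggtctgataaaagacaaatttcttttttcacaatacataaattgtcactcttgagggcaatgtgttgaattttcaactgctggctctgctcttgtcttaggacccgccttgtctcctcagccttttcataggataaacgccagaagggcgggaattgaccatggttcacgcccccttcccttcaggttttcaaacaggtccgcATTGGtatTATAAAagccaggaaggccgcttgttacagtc
Vmn1r-ps103 (chr13:22441022-22441271, plus strand) is the first receptor entry in symbol order with a promoter in the table. Its name marks a pseudogene, but the table lists it as protein coding.
Vmn1r-ps103: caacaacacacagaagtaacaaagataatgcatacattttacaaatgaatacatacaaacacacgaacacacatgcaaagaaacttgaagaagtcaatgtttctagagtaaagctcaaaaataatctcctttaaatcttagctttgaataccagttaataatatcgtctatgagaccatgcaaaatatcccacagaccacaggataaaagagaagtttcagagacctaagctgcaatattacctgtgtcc

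In these sequences TATAAA began 32 bases before the start of H2ac1 and of H4c4, 31 bases before that of H3c10 and 94 bases before that of H2bc1. The Vmn1r-ps103 promoter held neither motif. Over all matched genes, TATAAA was present in 26 of 51 histone promoters (51.0%) and 6 of 33 Vmn1r promoters (18.2%), against 13% of 27025 promoters of the same length. CCAAT was present in 43 histone promoters (84.3%) and 11 Vmn1r promoters (33.3%), against 34.5% of all. The H4 genes stood apart, since CCAAT occurred in 3 of their 11 promoters and in every one of the other 40 histone promoters. The number of CpGs in the 250 bases had a median of 9 in histone promoters (2 to 27), 1 in Vmn1r promoters (0 to 4) and 6 in all promoters. The ratio of observed to expected CpG, which corrects for base composition, had a median of 0.752 in histone promoters and 0.116 in Vmn1r promoters, beside 0.378 over all. H4c1 had the most CpGs of the histone promoters, with 27, and H4c2 was at the bottom of their range in this ratio, at 0.203. A motif match describes the letters of the window and is no evidence of binding.

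**Figure D1:**
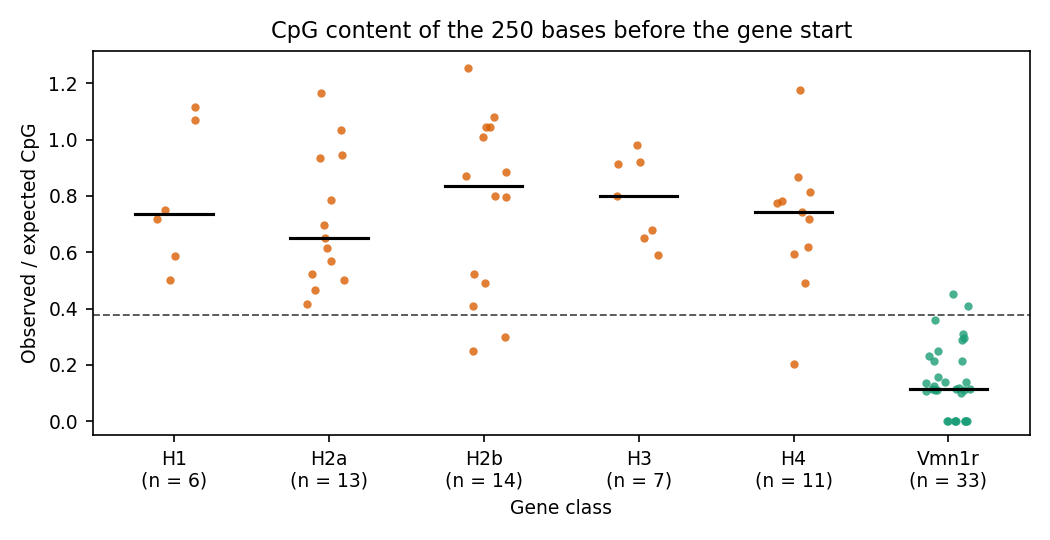
Ratio of observed to expected CpG (vertical axis) in the 250 bases before the start of each matched gene, by class (horizontal axis). Points are genes, bars are class medians and the dashed line is the median over all promoters, 0.378. Class medians of the histone genes lay between 0.651 for H2A and 0.836 for H2B, and the Vmn1r median was 0.116.

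Depth limited what the libraries could show in these windows. Between 124157 (IgG MeDIP) and 8053559 (H2A.B) distinct reads, with those of one chromosome, strand and 5′ position taken as 1, lay on chromosomes 1 to 19, X and Y, which gave 3.05 reads per kb for H2A.B and 0.204, 0.529, 0.717, 0.304 and 0.047 for IgG ChIP, the 5mC libraries in order and IgG MeDIP. Distinct positions made up 86.9% of H2A.B reads and 39.9% to 68.1% of the reads of the other libraries. Levels are given as CPM per kb, that is, distinct reads scaled to a library total of 1e+06 and divided by length, on which scale every library has a genome mean of 0.379. H2A.B and 5mC replicate 1 shared a flow cell, a lane and a read length of 42 bp. The other 4 libraries had 50 bp reads from a second flow cell, with IgG MeDIP and 5mC replicate 2 in lane 1 and IgG ChIP and 5mC replicate 3 in lane 2. For H2A.B against IgG ChIP, batch and antibody therefore cannot be told apart. The description of each IgG library names the H2A.B antibody, whereas its title and antibody field give IgG, and the latter were followed. All 201263 reads of IgG MeDIP also stood in the list of 5mC replicate 2 and were removed from it there. Intervals below are exact 95% intervals that cover counting error only, since PCR reads without molecular identifiers are not independent molecules.

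Read density was higher over the histone blocks than over the receptor interval in the H2A.B library, and by a like amount in its IgG control. H2A.B had 0.439 CPM per kb over the proximal block (1238 distinct reads), 0.419 over the distal block (1688) and 0.329 over the interval (3446). IgG ChIP had 0.440 (83 reads), 0.434 (117) and 0.329 (231). Both libraries thus lay above the genome mean in the blocks and below it in the interval. How reads that match several copies of a gene were treated is not stated in the labels, and its part in this difference was not tested. The density of both blocks together over that of the interval was 1.30 (1.24 to 1.36) for H2A.B and 1.32 (1.09 to 1.61) for IgG ChIP. The 2 blocks were close to each other, with a ratio of proximal to distal density of 1.05 (0.973 to 1.13) for H2A.B and 1.01 (0.756 to 1.35) for IgG ChIP.

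The 5mC libraries differed among themselves. Replicate 1 had 0.288 CPM per kb over the proximal block, 0.249 over the distal block and 0.253 over the interval. Replicate 2 had 0.306, 0.436 and 0.275, and replicate 3 had 0.430, 0.386 and 0.345. Over both blocks the mean was 0.351 ± 0.0747 (SD, n = 3) and over the interval 0.291 ± 0.0478, and each of the 3 libraries had the higher density over the blocks. A two-sided exact permutation test of the log2 ratios of blocks over interval within libraries, by change of sign (mean 0.26 ± 0.20, SD, n = 3), gave p = 0.25, the smallest that 3 libraries allow. All 3 libraries were below the genome mean in the interval. Replicate 1 was below it in both blocks as well, and replicate 2 in the proximal block. That mean includes tiles with very many reads. The median over all 50 kb tiles was lower, at 0.272, 0.306 and 0.348 CPM per kb in replicates 1 to 3, so replicate 3 was close to it in the interval. Replicate 2 alone of the 3 had a distal block above the proximal one, with many of its reads in a single stretch of 2 kb, described below. IgG MeDIP, with only 15, 23 and 31 reads in the 3 regions, had 0.345, 0.370 and 0.192.

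Within each library, the density over the blocks relative to the interval was 1.05 (0.906 to 1.21), 1.39 (1.24 to 1.55) and 1.17 (0.999 to 1.38) in the 5mC replicates, and 1.87 (1.14 to 3.12) in IgG MeDIP. The mean over the 3 5mC libraries was 1.20 ± 0.172 (SD, n = 3). No 5mC library reached the ratio of the IgG MeDIP control. Without the 4 windows of 1 kb that held 20 or more distinct reads of a library, which were chosen after their values were seen, replicate 2 fell from 1.39 to 1.13 (1.00 to 1.27) and IgG MeDIP to 1.48 (0.859 to 2.56).

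**Figure D2:**
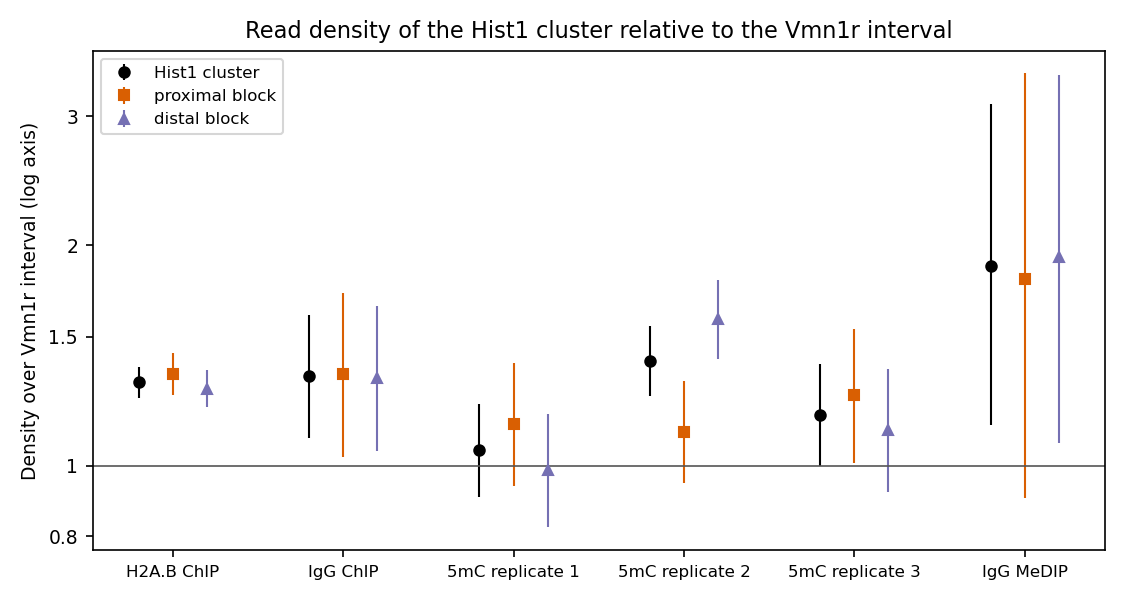
Read density of the Hist1 cluster relative to the Vmn1r interval in each library (log axis), for both blocks together and for each block. Points are ratios of distinct reads per kb and bars are exact 95% intervals for counting error. H2A.B and IgG ChIP lay at 1.30 and 1.32, with the H2A.B interval inside that of IgG ChIP.

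In tiles of 50 kb, H2A.B density was lower along most of the interval than in the blocks, without a sharp change at every border. The 17 tiles of the blocks ranged from 0.360 to 0.492 CPM per kb (median 0.427) and the 26 tiles of the interval from 0.251 to 0.432 (median 0.330), while the median of all 51331 tiles with a read was 0.343. All 17 tiles of the blocks exceeded the interval's median, 19 interval tiles lay below the lowest tile of the blocks, and 5 tiles of the blocks lay above the highest interval tile, so the groups overlapped. In IgG ChIP, which had few reads per tile, the tiles scattered more, from 0.185 to 0.779 in the blocks (median 0.445) and from 0.148 to 0.556 in the interval (median 0.334). Of its block tiles, 12 exceeded the interval's median. The interval itself was not flat in H2A.B. Its pieces of 100 kb ranged from 0.286, at chr13:23000001-23100000, to 0.406 at its distal end, chr13:23400001-23500000. In IgG ChIP the same pieces had 0.445 and 0.371, so the order of these 2 pieces was the opposite there. The gap of 50 kb between the proximal block and the interval had 0.283 CPM per kb of H2A.B (114 reads), close to the interval. The gap before the distal block had 0.477 (192 reads), and the interval tile chr13:23400001-23450000 had 0.432, so levels like those of the blocks were reached before the distal block. The 500 kb outside the blocks had 0.377 on the proximal side and 0.410 on the distal side, both above the interval. The distal side was close to the 0.419 of the distal block, with 1.25 (1.17 to 1.32) times the density of the interval against 1.27 (1.20 to 1.35). In IgG ChIP the same ratios were further apart, 1.04 (0.804 to 1.32) and 1.32 (1.05 to 1.65), with intervals that overlapped.

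**Figure D3:**
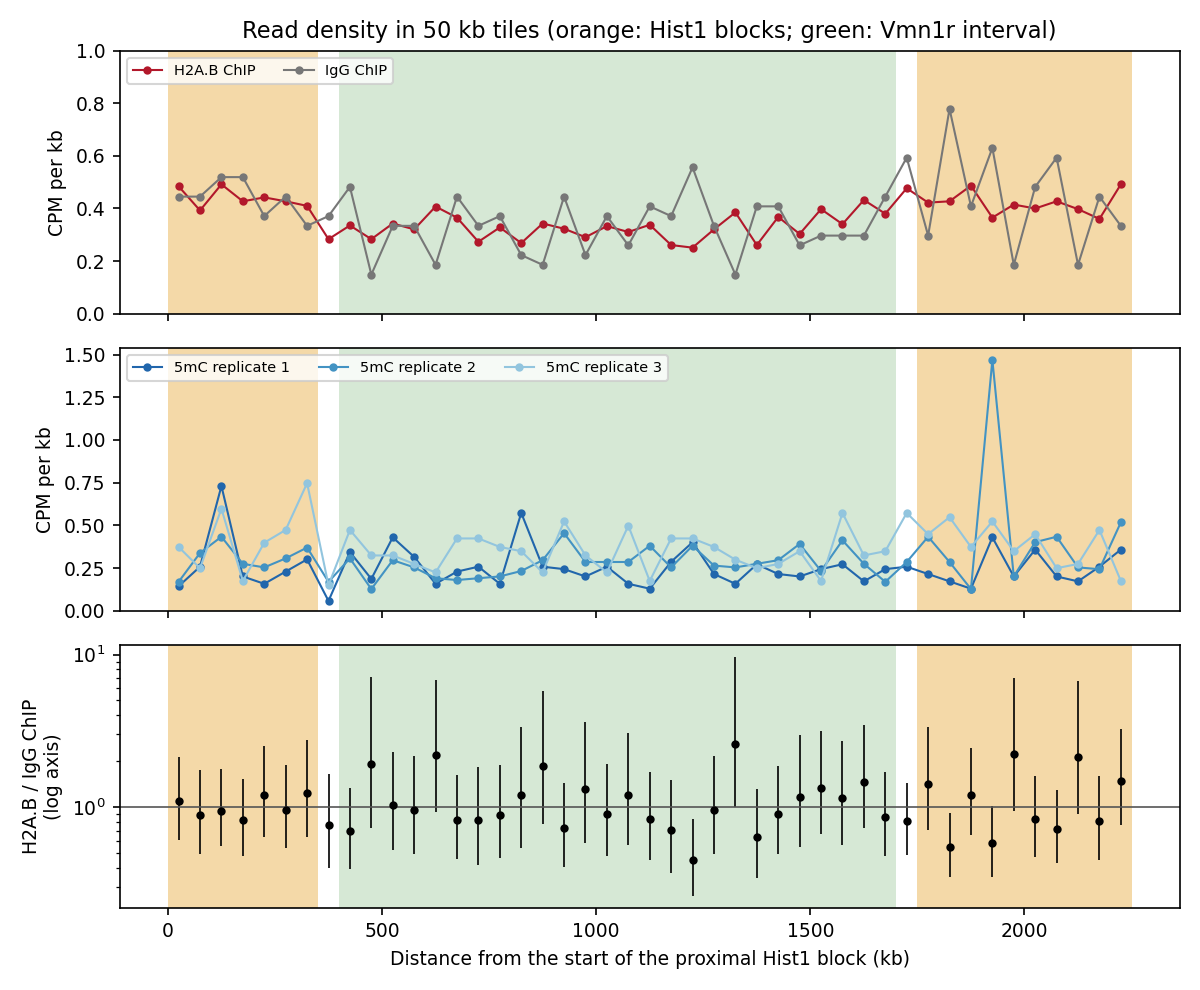
Read density in 50 kb tiles along the locus for H2A.B and IgG ChIP (top), the 3 5mC libraries (middle), and H2A.B over IgG ChIP with its exact 95% interval on a log axis (bottom). The horizontal axis is the distance from the start of the proximal block in kb. H2A.B lay between 0.360 and 0.492 CPM per kb in the blocks and between 0.251 and 0.432 in the interval.

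Divided by IgG ChIP, H2A.B showed no difference between blocks and interval that was detectable at this depth. H2A.B over IgG ChIP was 0.999 (0.799 to 1.26) over the proximal block, 0.966 (0.801 to 1.18) over the distal block and 0.999 (0.874 to 1.15) over the interval. The ratio over both blocks divided by that over the interval was 0.981 (0.803 to 1.20), so differences beyond 1.20 times in favour of the blocks lay outside the interval. The proximal block over the distal block gave 1.03 (0.766 to 1.40). The alternative divisor 5mC replicate 1, which shared the flow cell, lane and read length of H2A.B, gave a value above 1. The ratio of H2A.B to it was 1.61 (1.43 to 1.82) over the blocks and 1.30 (1.18 to 1.44) over the interval, and the first divided by the second was 1.24 (1.06 to 1.44). By block this quotient was 1.17 (0.955 to 1.44) for the proximal block, which includes 1, and 1.29 (1.07 to 1.56) for the distal block. The 1.24 sets the density ratio of H2A.B, 1.30, against that of replicate 1, 1.05. Without the windows of 20 or more reads, chosen after seeing the data, these density ratios were 1.29 and 1.09. A single such window, chr13:22641001-22642000, held 29 of the 459 replicate 1 reads in the interval. That divisor is an enrichment for 5mC and not a background library, and neither the lane's part nor that of 5mC in the 1.24 was tested. In the other lane that 2 assays shared, 5mC replicate 3 over IgG ChIP was 0.926 (0.769 to 1.12) in the blocks and 1.05 (0.884 to 1.24) in the interval.

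In windows of 10 kb, enrichment of H2A.B was called where its CPM was at least 1.5 times that of IgG ChIP and the lower bound of the ratio exceeded 1. No window was called in the 35 of the proximal block, the 50 of the distal block or the 130 of the interval, beside 0.62% of 256011 windows over all chromosomes. With so few IgG reads the rule had little power here: on simulated windows it recovered 8% of those raised 2-fold and 58% of those raised 4-fold. The mirrored rule, IgG ChIP above H2A.B, called 2 windows in the distal block, 0 in the proximal block and 2 in the interval, beside 2.64% over all. Windows of 20 kb gave 1 of 41 in the blocks and 2 of 65 in the interval by the first rule, beside 2.35% over all. The counts in the regions stood near the background in each case.

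No window had a lower bound above 1, and the windows that ranked highest by this bound had wide intervals. In the proximal block the highest lower bound was at chr13:21920001-21930000, with 57 H2A.B reads and 2 IgG ChIP reads, a ratio of 1.91 (0.505 to 16.1). It was followed by chr13:21820001-21830000, with 44 reads against 1, and chr13:22030001-22040000, with 43 against 1. In the distal block the windows ranked highest had no IgG ChIP read at all: chr13:23950001-23960000 had 34 H2A.B reads, chr13:23780001-23790000 had 33 and chr13:23690001-23700000 had 31. In the interval chr13:23140001-23150000 (38 reads) and chr13:22640001-22650000 (34) also had no IgG read, and chr13:23400001-23410000 had 53 H2A.B reads against 1. An absent IgG read was common, since 7 of the 85 windows in the blocks and 29 of 130 in the interval had none.

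At the other end, 4 windows passed the mirrored rule. They were chr13:23880001-23890000 (23 H2A.B and 6 IgG ChIP reads, ratio 0.257, 0.102 to 0.771) and chr13:23710001-23720000 (22 and 5 reads, ratio 0.295, 0.109 to 0.996) in the distal block, and chr13:23040001-23050000 (12 and 7 reads, ratio 0.115, 0.0417 to 0.344) and chr13:22200001-22210000 (21 and 5 reads, ratio 0.281, 0.103 to 0.955) in the interval. The lowest upper bounds of the proximal block, at chr13:21990001-22000000 (43 and 6 reads) and chr13:21890001-21900000 (23 and 4 reads), were above 1.

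The H2A.B library alone had the depth for windows of 1 kb, where its median was 2 distinct reads over all windows, those without a read included. A window counted as high in H2A.B at 3 times that median, 6 reads or more. In the proximal block 51 windows were high (14.6%), in the distal block 81 (16.2%) and in the interval 108 (8.31%), beside 16% over all windows with a read. The blocks were therefore near the genome's share and the interval below it, also over windows with a read alone, where the blocks had 15.9% and the interval 8.70%. Exact binomial intervals were 13.2% to 18.1% over both blocks and 6.86% to 9.94% over the interval. They take each window as an independent draw, but the windows are neighbours within 1 library and not replicates. These intervals are therefore a description and not a test of the regions. Windows with 10 or more reads numbered 27 of 850 in the blocks (3.18%) and 8 of 1300 in the interval (0.615%), beside 2.68% over all windows with a read, so the blocks were again near the background. Of windows with a read of any library, 3.74% in the blocks and 5.56% in the interval had none of H2A.B, beside 6.64% over all chromosomes. Windows without a read in any library made up 2.59% of the blocks, 4.54% of the interval and 8.52% of all windows, so unread windows were no more common in either region than in the genome.

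**Figure D4:**
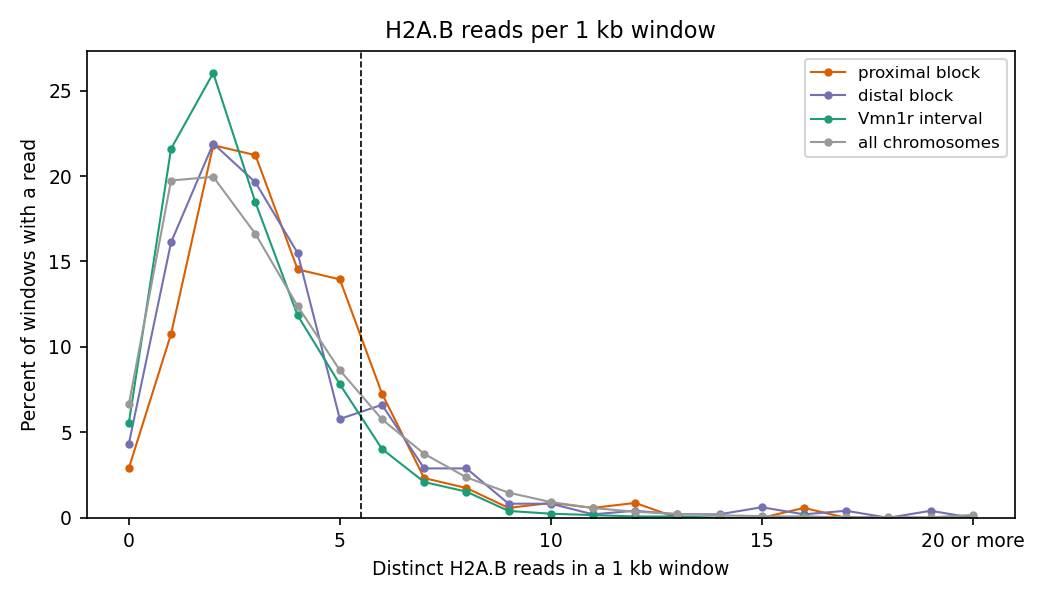
Percent of 1 kb windows with a read of any library (vertical axis) by their number of distinct H2A.B reads (horizontal axis) in the blocks, the interval and all chromosomes. The dashed line marks the limit of 6 reads for a high window. The share without an H2A.B read was 2.91% in the proximal block, 4.34% in the distal block and 5.56% in the interval.

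High windows were scattered. The 51 of the proximal block formed 40 separate runs of neighbouring windows, the 81 of the distal block 62 and the 108 of the interval 93, and the longest runs were 3, 4 and 3 kb. The variance of the H2A.B count over its mean, which is 1 for independent reads, was 1.57 in the proximal block, 2.39 in the distal block and 1.47 in the interval, where the median over 500 kb tiles of all chromosomes was 1.62. The distal block was thus the more uneven, but within the 10th to 90th percentile of such tiles, 1.37 to 2.48.

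Of the 1 kb windows with the most H2A.B reads, some held reads of the IgG ChIP control, which averaged 0.235 per kb in the blocks and 0.178 in the interval, and others held none. In the proximal block chr13:21925001-21926000 had 16 H2A.B reads and none of the other 5 libraries, chr13:22127001-22128000 had 16 with 3 of 5mC replicate 1 and none of the others, and chr13:21842001-21843000 had 12 with 2 of IgG ChIP. In the distal block chr13:23804001-23805000 had 19 H2A.B reads, 1 IgG ChIP read, 9, 13 and 6 reads of the 5mC replicates and 1 of IgG MeDIP. A second window with 19, chr13:24004001-24005000, had none of IgG ChIP and 2, 7 and 1 of the 5mC replicates. The next, chr13:23702001-23703000, had 17 and lay in the read pile described below. In the interval chr13:23226001-23227000 had 16 H2A.B reads with 3 of IgG ChIP, 5, 10 and 2 of 5mC and 3 of IgG MeDIP, while chr13:23405001-23406000 had 13 and none of any other library. The last, chr13:22497001-22498000, had 12 with 2 and 1 reads of 5mC replicates 1 and 2.

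Reads of 5mC replicates 1 and 3 were denser in the windows high in H2A.B than in the other windows of the blocks. The reads per kb in high windows over those in the others were 2.64 (2.07 to 3.36) for replicate 1 and 1.96 (1.48 to 2.57) for replicate 3, and without the windows of 20 or more reads they were 2.49 (1.94 to 3.19) and 1.78 (1.33 to 2.37). The values of 5mC replicate 2, 2.62 (2.20 to 3.10), and of IgG MeDIP, 2.83 (1.33 to 5.74), rested on 3 windows of the distal block, which held 124 of 200 and 9 of 13 of their reads in high windows. Without these 3 windows they were 1.02 (0.786 to 1.30) and 0.891 (0.225 to 2.58), and in the proximal block, which has no such window, they were 0.823 (0.519 to 1.26) and 0.419 (0.00990 to 2.75). IgG ChIP was at 1.36 (0.937 to 1.93) in the blocks. By block it was 1.86 (1.07 to 3.12) in the proximal one, which excludes 1, and 1.07 (0.624 to 1.74) in the distal one. In the proximal block 5mC replicates 1 and 3 had 2.32 (1.57 to 3.38) and 1.68 (1.05 to 2.61), with intervals that overlapped that of IgG ChIP. In the interval the values without its 1 window of 20 or more reads were 2.47 (1.91 to 3.16), 1.75 (1.39 to 2.19) and 1.68 (1.21 to 2.29) for the 5mC replicates, 2.79 (0.931 to 6.99) for IgG MeDIP and 1.06 (0.632 to 1.67) for IgG ChIP. With that window replicate 1 had 3.36 (2.68 to 4.18) and IgG MeDIP 3.22 (1.17 to 7.70). The high windows were chosen on H2A.B reads alone, and H2A.B and 5mC replicate 1 shared a lane, whose part in this was not tested.

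Relative to IgG MeDIP, 5mC had lower values over the blocks than over the interval in all 3 replicates, in a design too small for a test to pass. Over IgG MeDIP, 5mC was 0.737 (0.525 to 1.06), 1.06 (0.766 to 1.52) and 1.12 (0.797 to 1.62) in the blocks in replicates 1, 2 and 3, with a mean of 0.974 ± 0.208 (SD, n = 3). Over the interval it was 1.32 (0.914 to 1.96), 1.43 (1.00 to 2.13) and 1.79 (1.24 to 2.68), with a mean of 1.51 ± 0.249. All 3 ratios of the interval exceeded all 3 of the blocks, but each was divided by the same 38 and 31 IgG MeDIP reads and so they move together. On the log2 scale the density of blocks over interval was lower in 5mC than in IgG MeDIP by a mean difference of -0.65. A two-sided exact permutation test of the 3 5mC libraries against the 1 IgG MeDIP library gave p = 0.25, the smallest that this design allows. Replicate 2, from the lane of IgG MeDIP, and replicate 3, from its flow cell, had the same direction as replicate 1. Low values were not particular to the blocks. In the 500 kb outside them, the mean of 5mC over IgG MeDIP was 0.948 ± 0.105 (SD, n = 3) on the distal side. On the proximal side it was 2.01 ± 0.308. These rested on 25 and 9 IgG MeDIP reads.

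Single windows of 1 kb held too few 5mC reads for a ratio. A read of all 3 5mC libraries was present in 38 of 850 windows of the blocks (4.47%) and 37 of 1300 of the interval (2.85%), beside 5.33% over all windows with a read. An IgG MeDIP read was present in 3.53% of the block windows and 2.23% of the interval windows, beside 3.85% over all. The interval was below the background in both measures. Thinned to the depth of IgG MeDIP, the 5mC replicates had a read in 2.59%, 3.65% and 5.53% of the block windows and in 2.62%, 3.15% and 4.69% of the interval windows, so they lay on both sides of the control's 3.53% in the blocks and above its 2.23% in the interval.

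The 10 kb windows with the highest mean 5mC differed in how far the replicates shared the reads. In the proximal block these were chr13:21900001-21910000, with 28, 26 and 6 reads in replicates 1 to 3 (13.7 ± 6.29 CPM, SD, n = 3), chr13:22100001-22110000, with 8, 11 and 9 (7.58 ± 3.14 CPM), and chr13:21910001-21920000, with 16, 4 and 7 (7.43 ± 4.80 CPM). Each had 2 IgG MeDIP reads, which is 16.1 CPM at that library's depth. In the distal block chr13:23700001-23710000 led with 4, 111 and 9 reads (24.2 ± 30.1 CPM), followed by chr13:23800001-23810000 with 13, 22 and 8 (10.3 ± 1.19 CPM) and chr13:23730001-23740000 with 17, 21 and 4 (9.41 ± 3.88 CPM). The spread of the first exceeded its mean. In the interval chr13:22640001-22650000 had 33, 12 and 1 reads (10.4 ± 11.7 CPM), chr13:23350001-23360000 had 6, 23 and 10 (9.63 ± 4.62 CPM) and chr13:23030001-23040000 had 14, 11 and 6 (7.77 ± 2.12 CPM). The last of these was the only one of the 9 without an IgG MeDIP read. In all the others the CPM of IgG MeDIP exceeded the 5mC mean. It was 64.4 CPM (8 reads) at chr13:23700001-23710000 and 16.1 CPM (2 reads) in each of the rest. Mean 5mC was thus not above its control in those windows, though so few control reads make the comparison coarse.

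Reads of 5mC replicate 2 in the distal block were concentrated in a single pile. At chr13:23702001-23704000 this library had 104 distinct reads, 25.2% of all its reads in the distal block, and 92 of them fell within 583 bp. All 104 lay on the minus strand. IgG MeDIP had 8 reads in the same 2 kb, 34.8% of its reads in the block, also all on the minus strand, as were the 7 of 5mC replicate 3 and the 4 of IgG ChIP. H2A.B had 29 reads, 19 on the plus and 10 on the minus strand, and 5mC replicate 1 had 4, of which 1 was on the plus strand. The libraries of the second flow cell therefore held this pile on the minus strand alone, and those of the first flow cell held reads of both strands. The variance of the replicate 2 count over its mean was 15.3 in the distal block and 2.11 without the windows of 20 or more reads.

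**Figure D5:**
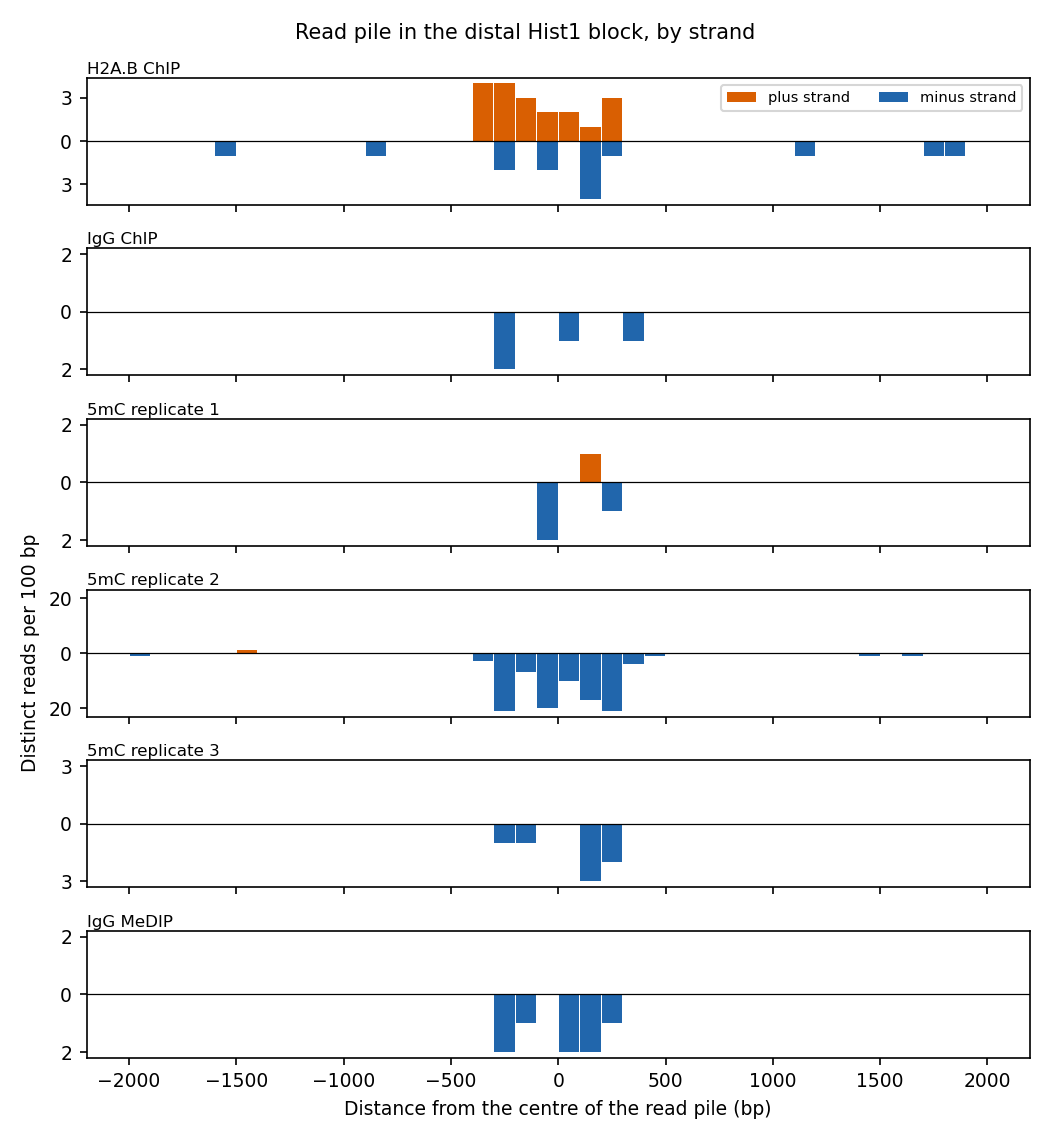
Distinct reads per 100 bp around the centre of the read pile in the distal block, with plus-strand reads above and minus-strand reads below the line in each library (scales differ between panels). Of 104 reads of 5mC replicate 2 in the pile all were on the minus strand, and H2A.B had 19 on the plus and 10 on the minus strand.

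The other windows with 20 or more distinct reads of a library were chr13:23586001-23587000 in the distal block, where 5mC replicate 2 had 20 reads, all on the plus strand, and chr13:22641001-22642000 in the interval, where 5mC replicate 1 had 29, 21 of them on the plus strand. Such windows numbered 3 of 500 in the distal block, 0 of 350 in the proximal block and 1 of 1300 in the interval, beside 0.351% over all windows with a read. Less deep windows of replicate 2 were one-sided as well, with 2 plus and 13 minus reads at chr13:21905001-21906000, 13 and 0 at chr13:23804001-23805000, 0 and 11 at chr13:22709001-22710000 and 0 and 10 at chr13:23226001-23227000. H2A.B had 15 plus and 4 minus reads in the second of these and 8 of each in the last. How reads with several matches were aligned is not known from the labels, and its part in such piles was not tested.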

How the data were processed

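Each deposited list holds aligned reads with chromosome, start, end, name, score and strand. The authors' deposited score has the same value for every read and was left aside. Per the submitters' processing notes, Bowtie, FastQC and build mm9 were used. Versions, settings and the treatment of reads with several matches are not given in the sources at hand. Lines off the tab format (1 of H2A.B, 8 of 5mC replicate 1) were left out. Distinct reads were counted by 5′ end in 1 kb windows and scaled to distinct reads on chromosomes 1 to 19, X and Y. Depth ran from 124157 to 8053559 distinct reads.

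Python 3.11.15, numpy 2.4.6, scipy 1.17.1 and pandas 2.3.3 were used. Shares and ratios of 2 totals have exact 95% Clopper-Pearson intervals, and ratios of ratios exact conditional odds-ratio intervals. H2A.B and IgG ChIP have 1 library each, so a rule of size replaced a test. The 10 kb rule, tested on simulated data, called 0.147% of unchanged windows. Where a gene has a RefSeq promoter, its 250 bases before the start were searched on both strands.

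In each region the text names, by rule, the 10 kb windows with the 3 highest lower and 2 lowest upper bounds of the H2A.B to IgG ratio and the 3 highest 5mC means with a read in each replicate, and the 3 windows of 1 kb with the most H2A.B reads. Other named windows were chosen after their values were seen. The members, lists and rules were chosen with earlier results of these data known. The alternatives were all reads, other limits, trimmed ends, thinning, another divisor and replicates left out. Sequence and gene models of mm9 were not used here.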

Additional observations from a re-analysis of the deposited data

How the results depend on the processing

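Of 71 results under alternatives, 61 stayed on their side with the same direction or within the limits set. Some of them could not have changed. No window of the regions exceeded 10 times the median, so leaving such windows out had no effect. Leaving out windows without a read could not alter a comparison between libraries either, because it removes no read. The H2A.B to IgG ChIP ratio of blocks over interval, 0.981 (0.803 to 1.20), included 1. It was 1.24 (1.06 to 1.44) with 5mC replicate 1 as the divisor, and the 2 intervals overlapped. With all reads, duplicates included, the density ratio of 5mC replicate 3 was 1.19 (1.03 to 1.37), no longer including 1. Without windows of 20 or more reads, an alternative chosen after seeing the data, the IgG MeDIP ratio was 1.48 (0.859 to 2.56), including 1. The share of block windows high in H2A.B was 4.71% with all reads, 39.2% at 2 times the median and 3.18% at 5 times. The interval was lower in each case (1.38%, 27.1% and 0.615%). With all reads the limit rose above 6 reads, since duplicates raise the counts and could not lower the share at a fixed limit. At 5 times the median, 10 reads or more, 2.68% of all windows with a read passed, near the share of the blocks. The share over all windows is not given for the other limits. Windows with a read of every 5mC library were 0% after thinning, and 8.71% to 11.1% with 1 replicate left out, which asks for a read in 2 libraries instead of 3. The 5mC contrast of -0.65 ranged from -0.76 to -0.55 with a replicate left out, with an exact p of 0.333 each time. It was -0.40 without windows of 20 or more reads (p = 0.25), -0.53 with all reads and -0.55 with the first sorted block of replicate 2 alone (exact p = 0.5 for both), and -0.69 with trimmed ends. No paired analysis was possible between the groups because H2A.B, IgG ChIP and IgG MeDIP have 1 library each; blocks and interval were compared within each 5mC library. Depth was the limit throughout: IgG MeDIP had 38 reads in the blocks and 31 in the interval, and IgG ChIP 200 and 231.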

Other observations

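Libraries also differed in the strand of their reads. Plus-strand reads made up 55.6% of H2A.B reads (53.8% to 57.4%) and 57.5% of 5mC replicate 1 reads (51.8% to 63.0%) in the blocks. In the second flow cell they made up 41.5% for IgG ChIP, 40.9% and 44.9% for 5mC replicates 2 and 3 and 39.5% for IgG MeDIP. The split between the flow cells was also present on the rest of chromosome 13, with 53.1% and 56.6% in the first flow cell and 44.7% to 45.6% in the second. Of chromosome 13 windows with 20 or more distinct reads of a library, 209 of 217 (96.3%) had at least 90% on 1 strand in 5mC replicate 2, 7 of 9 in replicate 3, 5 of 6 in IgG ChIP and 3 of 4 in IgG MeDIP. In H2A.B it was 1 of 146 and in 5mC replicate 1 it was 5 of 60. These values are a description, and the cause was not tested.

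The most copied single position held 36 reads in IgG ChIP (23150349, in the interval), 27 in 5mC replicate 3 (22894405, in the interval), 13 in replicate 2 (23808372, in the distal block), 4 in replicate 1 and 3 each in H2A.B and IgG MeDIP. Each such position counted once in the levels of the report.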
